A study of Mus musculus with 4 samples.

Results

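The 10 genes described here carry glucose into the cell and take it through glycolysis to lactate. They are the glucose transporter Slc2a1 (GLUT1), the hexokinase Hk2, and the enzymes Aldoa, Tpi1, Gapdh, Pgk1, Pgam1, Eno1, Pkm and Ldha. They were selected by gene symbol, and their symbols matched 11 of the 31053 gene rows of the count matrices. The additional row was a second entry named Aldoa (ENSMUSG00000114515), which held between 0 and 3 UMIs in each of the 4 libraries and is not described further.

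Single-cell RNA sequencing (10x Genomics) had been carried out on submandibular salivary glands of female C57BL6/J mice after repeated magnetic depletion of EpCAM-positive epithelial cells and Ter119-positive red blood cells and a removal of dead cells, so that stromal cells were enriched. In the 2 deligated libraries (age 14 weeks) a metal clip had closed the main ducts for 14 days and had then been off for 5 days. The 2 homeostatic libraries came from mice of 12 weeks without surgery. The number of animals behind each library is not given in the sources used here, and the extraction protocol also names sublingual glands.

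Glycolysis splits glucose into pyruvate and yields ATP without oxygen. Slc2a1 is a basal glucose carrier of many cell types, and hexokinase traps glucose in the cell as glucose 6-phosphate. Aldolase and triose phosphate isomerase make the triose phosphates, and Gapdh, Pgk1, Pgam1, Eno1 and Pkm carry these to pyruvate, with ATP made at the Pgk1 and Pkm steps. Ldha reduces pyruvate to lactate and restores NAD+. Activated lymphocytes and inflammatory macrophages are known for raised glycolysis, quiescent endothelium relies on it for much of its ATP, and hypoxia-inducible factors and Myc are textbook activators of several of these genes.

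The DNA just upstream of the start of 3 members is shown. Slc2a1 and Hk2 carried the largest changes among the members, and Pgk1, which changed in 2 classes, is shown as a member with a single window that holds 2 matches. Pgk1 was chosen after the values were seen. Pkm changed in 3 classes, and its 2 windows, not printed, held 0 and 1 matches. The stretches are from RefSeq on GRCm38.p6, read 5′ to 3′ on the strand of the gene and placed before the annotated start of the gene (for Slc2a1, 34 bases of the window inside the gene were left out, and with them part of a second match that spans this boundary), and capitals mark each match to ACGTG or GCGTG, the core letters of the hypoxia response element, on either strand (read as CACGT or CACGC on the other). Overlapping matches count separately.
Slc2a1, chr4:119108495-119108710, plus strand: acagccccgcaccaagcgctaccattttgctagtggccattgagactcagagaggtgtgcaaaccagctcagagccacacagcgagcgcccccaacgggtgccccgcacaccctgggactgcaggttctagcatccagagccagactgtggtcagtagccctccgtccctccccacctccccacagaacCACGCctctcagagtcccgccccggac
Hk2, chr6:82774455-82774704, minus strand: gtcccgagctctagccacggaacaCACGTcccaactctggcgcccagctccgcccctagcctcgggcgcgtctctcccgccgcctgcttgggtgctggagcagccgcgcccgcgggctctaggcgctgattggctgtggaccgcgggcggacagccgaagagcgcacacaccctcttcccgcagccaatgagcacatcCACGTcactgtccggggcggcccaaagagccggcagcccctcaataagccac
Pgk1, chrX:106186850-106187099, plus strand: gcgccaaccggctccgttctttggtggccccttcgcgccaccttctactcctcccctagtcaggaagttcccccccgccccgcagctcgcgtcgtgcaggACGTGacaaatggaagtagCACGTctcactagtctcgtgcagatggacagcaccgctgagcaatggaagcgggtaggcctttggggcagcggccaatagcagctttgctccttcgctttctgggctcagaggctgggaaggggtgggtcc
All 10 members were in the RefSeq table, with 16 start sites among them. Of these 16 upstream windows of 250 bases, 13 held a match, and 9 of the 10 genes had at least 1 such window. Tpi1 had none. Windows of the same gene can overlap and hold the same match, as for Aldoa and Eno1, so such a match counts more than once. The share among all 32851 windows of the table was 38.6%, a share of windows and not of genes. A match describes the letters and is not evidence of binding.

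The libraries held 4725 and 8713 barcodes (deligated) and 12854 and 13266 barcodes (homeostatic), with 35662241, 53898793, 53633980 and 52379402 UMIs. Between 14 and 54 barcodes were shared by any pair of libraries, at most 0.482% of the smaller one. After filtering, 33695 cells fell into 33 clusters, and the members took no part in the clustering. A total of 9 classes were named by resemblance to fixed markers, and 8 clusters stayed unnamed. They held 3.08% and 4.21% of the deligated cells and 21.9% and 23% of the homeostatic cells. Levels are given as CPM, the UMIs of a gene over all cells of a class in a library, scaled to the same total for every class and library. Most NK, T, fibroblast and endothelial clusters were made nearly wholly of cells of 1 group, so classes were compared.

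Across 7 of the 9 named classes, in the homeostatic libraries, the summed level of the members was highest in epithelial-like cells (3654 and 3750 CPM) and next in mural-like cells, the contractile cells around vessels (2269 and 2173 CPM). T cell-like (1467 and 1450 CPM), endothelial-like (1415 and 1421 CPM), macrophage-like (1349 and 1391 CPM) and NK/innate lymphoid-like cells (1353 and 1295 CPM) lay close together. Fibroblast-like cells were lowest of the 7 (1046 and 1036 CPM). Outside this order, Schwann-like cells were at 6028 and 946 CPM, the first value resting on 2 of 45 cells, and the 6 and 2 B cell-like cells at 1147 and 1057 CPM. Neighbours in this order did not overlap, except macrophage-like and NK/innate lymphoid-like cells, and 4 of the 6 steps were of 1.27-fold or less. With 2 libraries per group this is a description without a test. CPM is a share of a cell's RNA, so a class with a few very abundant transcripts has less room for all others. Homeostatic epithelial-like cells were shallow, with median depths of 1336 and 1374 UMIs. Their median mitochondrial shares were 0.07% and 0.08%, against 2.05% and 2.18% in endothelial-like cells.

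**Figure D1:**
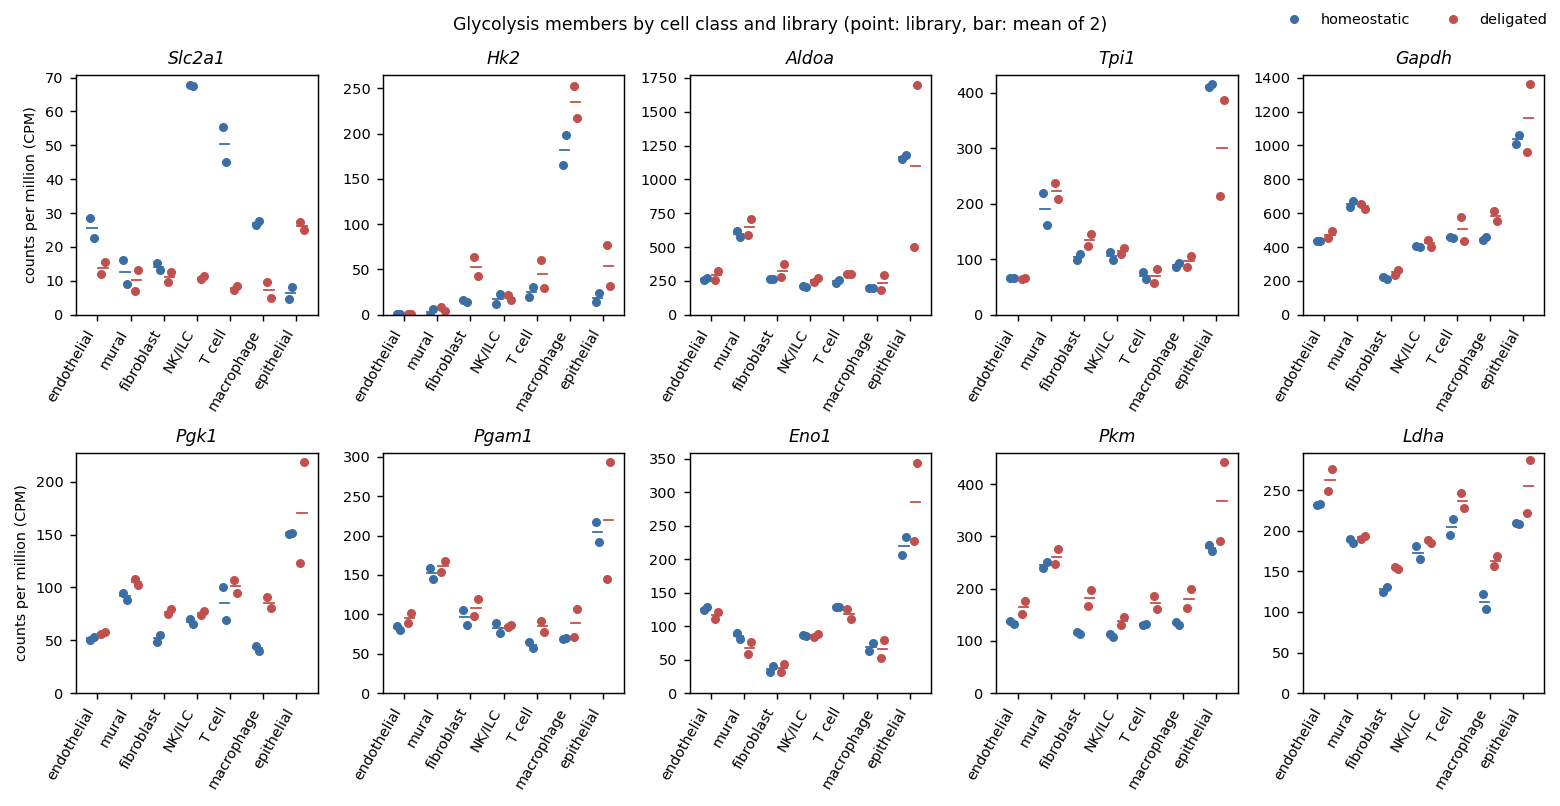
Level of each member in CPM (UMIs scaled to an equal total, linear axes from 0, a separate scale per gene) in 7 classes, with each point a library and each bar the mean of 2 libraries. Slc2a1 stands at 67.8 and 67.6 CPM in homeostatic NK/innate lymphoid-like cells (NK/ILC on the axis) against 10.4 and 11.5 CPM in deligated ones, while Hk2 is highest in macrophage-like cells of both groups and near 0 in endothelial-like cells.

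Epithelial-like and mural-like cells ranked first and second for 6 members in the homeostatic libraries: Aldoa, Gapdh, Pgam1, Pkm, Tpi1 and Pgk1. Aldoa, which cleaves fructose 1,6-bisphosphate, was at 1149 and 1181 CPM in epithelial-like and at 619 and 575 CPM in mural-like cells, against 195 and 195 CPM in macrophage-like cells, the lowest class. Ldha had another order. It was highest in endothelial-like cells (232 and 233 CPM), 1.11-fold above epithelial-like cells without overlap, and lowest in macrophage-like cells (122 and 104 CPM). Eno1, the enolase that makes phosphoenolpyruvate, was lowest in fibroblast-like cells (32.1 and 40.4 CPM), with no overlap with the next class.

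Among epithelial-like cells of the homeostatic libraries the clusters differed widely in the summed level. A cluster led by Bdh1, Gm15241 and Foxq1 stood at 5372 and 5426 CPM, and one led by Ascl3 and Foxi1, genes of salivary ionocytes, at 5232 and 5096 CPM. The cluster led by kallikrein genes (Klk1b16, Klk1b22), products of granular ducts, was at 4001 and 4094 CPM. A cluster led by the secretory genes Dcpp1 and Bpifa2 was at 630 and 835 CPM, and an unnamed cluster led by Scgb2b26, Scgb1b27 and Car6 was at 179 and 163 CPM. Clusters led by A2ml1 (1835 and 1779 CPM) and by Pcp4 and Igfbp2 (1826 and 2116 CPM) lay between, and the order of the first 3 above these and of these above the secretory clusters was the same in both libraries. These cells remained after a depletion of epithelial cells, and the deligated libraries held 35 and 94 epithelial-like cells against 2114 and 2237, so no comparison between groups was made.

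Within mural-like cells, the smooth muscle subset (Myh11, Acta2, Tagln) was above the pericyte subset (Kcnj8, Abcc9) in every library. The summed members were at 2542 and 2516 CPM (deligated) and 2567 and 2315 CPM (homeostatic) in smooth muscle, and at 1765, 2132, 1576 and 1681 CPM in pericytes. The lowest smooth muscle value exceeded the highest pericyte value, and the deligated and homeostatic ranges overlapped in smooth muscle. In pericytes they did not overlap, with the deligated values higher, and this difference was not tested.

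Slc2a1, the glucose uptake gene, was lower in deligated than in homeostatic NK/innate lymphoid-like, T cell-like and endothelial-like cells. Its order among homeostatic classes ran from NK/innate lymphoid-like (67.8 and 67.6 CPM) through T cell-like (55.4 and 45.2 CPM), macrophage-like (26.5 and 27.7 CPM) and endothelial-like (28.5 and 22.6 CPM) to fibroblast-like (15.3 and 13.1 CPM), mural-like (16.1 and 9.16 CPM) and epithelial-like cells (4.56 and 8.16 CPM). The pairs macrophage and endothelial, and fibroblast and mural, overlapped. In deligated libraries the lymphoid classes no longer stood above the others, at 10.4 and 11.5 CPM in NK/innate lymphoid-like cells and 7.42 and 8.55 CPM in T cell-like cells, beside 12.1 and 15.7 CPM in endothelial-like cells. The epithelial-like cells of these libraries stood at 27.3 and 25.0 CPM, from 6 and 4 UMIs (95% Poisson intervals 10.0 to 59.4 and 6.81 to 64.0 CPM, counting error only). Those UMIs lay in 17.1% of 35 and 2.13% of 94 cells, and after thinning to 1000 UMIs per cell none was left.

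In NK/innate lymphoid-like cells the 2 groups were far apart, and Slc2a1 fell by 2.52 on the log2 scale (SE 0.11, 5.75-fold, n = 2 libraries per group, edgeR quasi-likelihood, adjusted p = 2.38e-06). In T cell-like cells it also fell by 2.52 (SE 0.26, adjusted p = 0.000589), again without overlap. In endothelial-like cells the fall was 0.86 (SE 0.15, 1.81-fold, adjusted p = 0.00764). The values of fibroblast-like cells (9.60 and 12.7 against 15.3 and 13.1 CPM) gave -0.29 (SE 0.26, adjusted p = 0.458), and mural-like cells gave -0.30 (SE 0.48, adjusted p = 0.782), with overlapping groups in the latter. The lymphoid calls were kept under each of the 16 alternatives run, with adjusted p up to 0.000115 in NK/innate lymphoid-like and 0.00958 in T cell-like cells. The endothelial call was lost in the arterial subset alone (-0.53, adjusted p = 0.282), where the levels were 9.50 and 10.5 against 17.9 and 11.1 CPM.

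**Figure D2:**
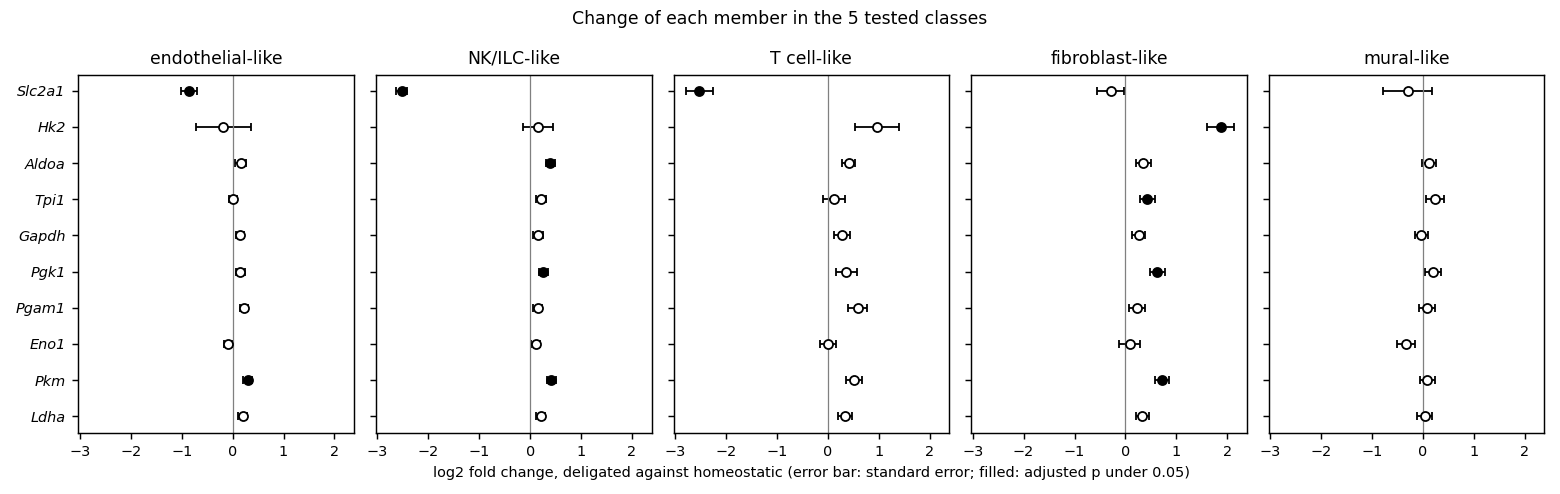
Log2 fold change of each member, deligated against homeostatic, in the 5 tested classes, with its standard error, filled where the adjusted p is under 0.05. Slc2a1 lies at -2.52 in NK/innate lymphoid-like (NK/ILC) and T cell-like cells and at -0.29 in fibroblast-like cells, where Hk2 lies at 1.87. Hk2 was too low for the test in mural-like cells.

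The change of Slc2a1 differed among the 5 classes (F = 35.1, adjusted p = 2.01e-05, edgeR quasi-likelihood test of the class by group terms). Of 14543 genes, 9.12% differed among classes at the same threshold. The change in NK/innate lymphoid-like cells was lower than that in endothelial-like cells by a log2 difference of -1.61 (SE 0.18, adjusted p = 2.75e-05), a contrast that 6.01% of genes passed.

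The share of NK/innate lymphoid-like cells with at least 1 Slc2a1 UMI was 6.42% and 6.47% (deligated) against 31.0% and 30.8% (homeostatic), at median depths of 5955 and 5513 against 6262.5 and 6204 UMIs per cell. With every cell thinned to 1000 UMIs (1 to 3 shallower cells left out per library) the shares were 1.24% and 0.96% against 7.73% and 6.86%. In homeostatic epithelial-like cells, where the level was lowest, 0.90% and 1.07% of cells had a UMI, at median depths of 1336 and 1374. Thinned to 1000 UMIs, the epithelial-like shares were 0.26% and 0.37% (583 and 608 shallower cells left out), below the lymphoid ones of the same libraries.

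Different clusters made up the lymphoid classes of the groups. The groups also differed in software version (given below), age and surgery, and which of these split the clusters cannot be told apart. A cluster led by Cd7, Klrb1c and Rgs1 held 885 of 888 and 2083 of 2086 deligated NK/innate lymphoid-like cells, and one led by Dscam, Dok6 and Oprm1 held 1002 of 1012 and 1040 of 1053 homeostatic ones. Slc2a1 was at 10.5 and 11.5 CPM in the former and 68.0 and 68.0 CPM in the latter. A T cell-like cluster present in both groups, led by Cd163l1, Il17a and Blk, had Slc2a1 at 5.35 and 5.19 CPM in the deligated libraries and at 69.5 CPM (95% Poisson interval 31.8 to 132, counting error only) in the 25 cells of homeostatic replicate 2. Homeostatic replicate 1 held 11 cells of this cluster, below the 20 cells from which cluster levels were computed. An unnamed cluster led by Areg and Il1rl1, found in deligated libraries, stood at 15.3 and 12.9 CPM, and one led by Stab2 and Ctnna2, found in homeostatic libraries, at 54.0 and 63.2 CPM. In the endothelial-like cluster led by Selp and Vwf, genes of veins, the groups overlapped (22.7 and 32.1 against 46.9 and 22.9 CPM).

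**Figure D3:**
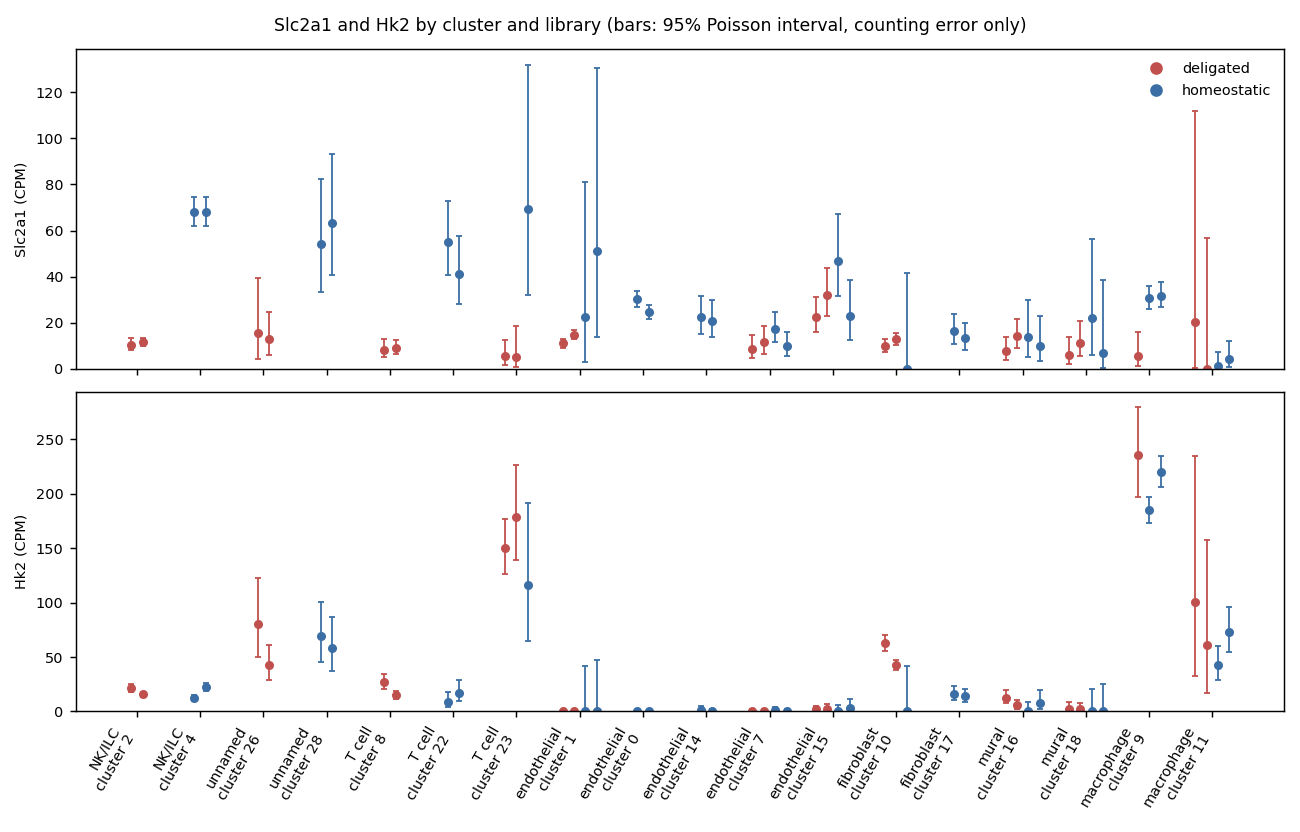
Slc2a1 and Hk2 in CPM (UMIs scaled to an equal total, linear axes from 0) in the main clusters of the tested classes and of macrophage-like cells and in unnamed clusters 26 and 28, each point a library with its 95% Poisson interval, which covers counting error only. Homeostatic points of the NK/innate lymphoid-like (NK/ILC) and T cell-like clusters lie between 41.0 and 69.5 CPM for Slc2a1 and deligated points between 5.19 and 11.5 CPM. For Hk2, the macrophage-like cluster 9 and the T cell-like cluster 23 are highest.

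Slc2a1 (ENSMUSG00000028645, chr4:119108711-119137983 on GRCm38, plus strand) holds 25.8 kb of intron. Gm12867 and Gm12868 overlap it on the other strand, and whether strand was used in counting is not given in the sources used here. The homeostatic matrices had been made with another software version (Cell Ranger 7.0.0) than the deligated ones (6.0.1), so version, age and surgery cannot be told apart. With the trend along intron length removed, the change was -2.45 in NK/innate lymphoid-like cells (adjusted p = 4.21e-06) and -0.85 in endothelial-like cells (adjusted p = 0.0103). The summed salivary secretory products, an index of free RNA from epithelium, also moved with the group: 65.2 and 111 CPM in deligated against 1588 and 1554 CPM in homeostatic NK/innate lymphoid-like cells. Slc2a1 in the epithelial-like cells of the same homeostatic libraries was at 4.56 and 8.16 CPM, and the part of free RNA in the change was not tested. Macrophage markers in NK/innate lymphoid-like cells were also lower in both deligated libraries for 8 of 12 genes, with none at 0 throughout (summed 9.90 and 26.4 against 63.1 and 40.4 CPM). Epithelial markers were lower in both for 8 of 13 genes and higher for 1 (125 and 175 against 225 and 224 CPM). Fibroblast markers were higher in both for 10 of 12 genes (48.3 and 135 against 11.8 and 15.3 CPM) and mural markers for 11 of 12 (56.4 and 86.2 against 16 and 18.5 CPM). In T cell-like cells mural markers were higher in both for 11 of 12 genes (72.8 and 122 against 38.3 and 25.2 CPM) and fibroblast markers for 8 of 12 (52.0 and 157 against 14.1 and 26.3 CPM), and macrophage markers were lower in both for 5 of 12, with 3 at 0 throughout (4.5 and 20.2 against 37.3 and 42.1 CPM). The secretory products there were at 29.7 and 63.7 against 1370 and 1609 CPM. Epithelial markers there were lower in both for 6 of 13 genes, with 2 at 0 throughout (50.2 and 140 against 173 and 219 CPM). In endothelial-like cells the secretory products were at 48.3 and 85.5 against 2044 and 2098 CPM, and epithelial markers were lower in both for 11 of 13 genes (2.3 and 6.0 against 39.9 and 44.2 CPM). Macrophage markers there were lower for 8 of 12, with 1 at 0 throughout (6.1 and 20.2 against 41.1 and 27.9 CPM). Markers of NK/innate lymphoid cells were higher for 10 of 14 (39.7 and 188 against 27.6 and 18.5 CPM), and fibroblast (48.6 and 136 against 13.9 and 15.7 CPM) and mural markers (77.4 and 92.6 against 47.7 and 33.0 CPM) each for 10 of 12. T cell markers were higher for 9 of 12 (14.6 and 38.7 against 6.7 and 5.3 CPM) and lymphatic endothelial markers for 4 of 8, with 1 at 0 throughout (286 and 271 against 117 and 171 CPM). The part of these markers in the results was not tested.

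Of the 13 listed genes of glucose and lactate transport, 10 were tested in endothelial-like cells and 2 fell. Slc2a3 (GLUT3), a high-affinity neuronal and leukocyte carrier, went from 10.6 and 9.53 to 4.31 and 4.98 CPM (log2 -1.09, adjusted p = 0.0039), and Slc2a13, a myo-inositol carrier of the same family, fell by 2.83. In NK/innate lymphoid-like cells 1 of 9 rose and 4 fell, among them the lactate carrier Slc16a1 (MCT1), from 13.8 and 9.05 to 3.71 and 3.22 CPM (log2 -1.65, adjusted p = 0.00227). In T cell-like cells 1 of 5 fell, Slc2a3 (63.5 and 65.2 to 34.8 and 32.6 CPM), and its call was lost with the intron-length trend removed (adjusted p = 0.372). In fibroblast-like cells 1 of 10 rose, the carrier chaperone Bsg (log2 0.47), and 3 fell. In mural-like cells 1 of 7 fell. The share that passed in either direction was thus 5 of 9 in NK/innate lymphoid-like cells, where 43.5% of all genes passed, 4 of 10 in fibroblast-like cells (27.5% of all genes), 1 of 7 in mural-like cells (7.76%), 2 of 10 in endothelial-like cells (35.3%) and 1 of 5 in T cell-like cells (18.5%). After removal of the intron-length trend the counts that fell were 3, 1, 0, 0 and 0 in endothelial-like, NK/innate lymphoid-like, T cell-like, fibroblast-like and mural-like cells, and none rose. In that setting 3992 of 13226, 3537 of 11606, 802 of 9737, 2106 of 11621 and 495 of 9825 genes passed.

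Hk2, the first enzyme of the pathway, was highest in macrophage-like cells among the classes compared. It was also higher in deligated than in homeostatic fibroblast-like cells. A T cell-like cluster, given below, was high as well. Macrophage-like cells held 253 and 217 CPM (deligated) and 165 and 199 CPM (homeostatic), 7.33-fold above the next class in the homeostatic libraries. Hk2 was at 24.8 ± 8.03 CPM (SD, n = 2) in T cell-like, 19.0 ± 6.55 in epithelial-like, 17.3 ± 7.14 in NK/innate lymphoid-like and 15.0 ± 1.89 in fibroblast-like cells, where neighbours overlapped. Mural-like cells (3.05 ± 4.31 CPM) and endothelial-like cells (0.62 ± 0.18 CPM) were lowest. The share of cells with an Hk2 UMI was 38.9% and 41.2% in homeostatic macrophage-like cells (median 3394.5 and 3022 UMIs), 1.75% and 2.55% in epithelial-like cells (median 1336 and 1374 UMIs), and 0.29% and 0.20% in endothelial-like cells (median 3677.5 and 3675.5 UMIs). Thinned to 1000 UMIs, the macrophage-like shares were 13.2% and 14.2% (183 and 186 shallower cells left out).

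The Hk2 gene (ENSMUSG00000000628) lies at chr6:82725025-82774454 on GRCm38, minus strand, and is overlapped on the other strand by Gm17034. In fibroblast-like cells Hk2 stood at 63.3 and 42.5 CPM in the deligated libraries and at 16.3 and 13.6 CPM in the homeostatic ones. The groups did not overlap, and Hk2 rose by a log2 fold change of 1.87 (SE 0.27, 3.66-fold, n = 2 per group, edgeR quasi-likelihood, adjusted p = 0.000622). The call was kept under each of the 16 alternatives run (log2 1.52 to 2.47, adjusted p up to 0.0164), and with the intron-length trend removed the value was 2.08. The clusters again differed by group: one led by Cilp, Mfap4 and Spp1 held 355 and 734 deligated cells, and one led by Lsamp, Astn2 and Eda held 256 and 252 homeostatic cells. Here too, software version, age and surgery cannot be told apart. Macrophage markers, summed over 12 genes, were at 19.0 and 38.7 CPM in deligated and 33.6 and 38.3 CPM in homeostatic fibroblast-like cells. T cell markers were higher in both deligated libraries for 10 of 12 genes (summed 15.7 and 67.4 against 2.0 and 0.0 CPM), and NK/innate lymphoid markers for 6 of 14 (26.1 and 265 against 17.8 and 18.9 CPM). Mural markers were higher for 8 of 12 genes (590 and 613 against 397 and 385 CPM), while epithelial markers were lower for 8 of 13 (5.4 and 8.5 against 46.4 and 42.0 CPM). Salivary secretory products fell for 12 of 13 tested genes (177 and 148 against 2039 and 1447 CPM). Erythroid markers were lower for 4 of 7 genes, with 2 at 0 throughout (55.5 and 213 against 391 and 3560 CPM). The 12 fibroblast markers themselves were higher in both deligated libraries for 8 genes (summed 45099 and 42997 against 30747 and 31369 CPM). Their part in the result was not tested.

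In T cell-like cells Hk2 was at 60.9 and 29.0 CPM (deligated) against 19.1 and 30.5 CPM (homeostatic). These groups overlapped, and the log2 fold change of 0.97 (SE 0.43) missed the threshold (adjusted p = 0.161). It passed without deligated replicate 2 (log2 1.44, adjusted p = 0.00106) and without the filter on low counts (log2 1.03, adjusted p = 0.00106). The cluster led by Cd163l1, Il17a and Blk, genes of interleukin 17-producing gamma delta T cells, stood at 150 and 179 CPM in the deligated libraries and 116 CPM in homeostatic replicate 2. It held 155 of 600 T cell-like cells in deligated replicate 1 and 65 of 807 in deligated replicate 2. The T cell-like cluster led by Cd8b1 and Cd8a was at 26.7 and 14.8 CPM. NK/innate lymphoid-like cells (21.4 and 15.7 against 12.2 and 22.3 CPM) gave 0.16 (SE 0.30, adjusted p = 0.699), and endothelial-like cells gave -0.18 (SE 0.55, adjusted p = 0.821). The change of Hk2 differed among the tested classes (F = 6.17, adjusted p = 0.0365), and leaving out either homeostatic library ended this call.

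The following counts are over all 10 members, Slc2a1 and Hk2 included. In endothelial-like cells 1 member rose and 1 fell of 10 tested, where 35.3% of 13226 genes passed the same threshold (12.9% higher, 22.3% lower). In NK/innate lymphoid-like cells 3 rose and 1 fell, against 43.5% of 11606 genes (16.5% higher, 27.0% lower). In T cell-like cells 1 fell, Slc2a1, against 18.5% of 9737 genes (4.5% higher, 14.0% lower), and in fibroblast-like cells 4 rose (Hk2, Pkm, Pgk1 and Tpi1) and none fell, against 27.5% of 11621 genes (8.94% higher, 18.6% lower). In mural-like cells none of 9 members passed (none at an unadjusted p under 0.05, and none with DESeq2), against 7.76% of 9825 genes (1.22% higher, 6.53% lower). The members that rose, 3 of 10 in NK/innate lymphoid-like and 4 of 10 in fibroblast-like cells, stand beside 16.5% and 8.94% of all genes. Of the 3 in NK/innate lymphoid-like cells (Aldoa, Pgk1 and Pkm), only Pkm was still called with the intron-length trend removed, and none with scaling from genes of at most 20 kb of intron. The median log2 fold change of the members was 0.15, 0.18, 0.35, 0.34 and 0.08 in endothelial-like, NK/innate lymphoid-like, T cell-like, fibroblast-like and mural-like cells, where that of all genes tested was between 0.00 and 0.03. With the intron-length trend removed, the members' medians were -0.04, -0.02, 0.13, 0.10 and -0.08.

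Of the triose-forming enzymes, Aldoa rose in NK/innate lymphoid-like cells from 213 and 204 to 241 and 273 CPM (log2 0.40, SE 0.08, adjusted p = 0.00591). The groups did not overlap. The call was lost with the intron-length trend removed (0.12, adjusted p = 0.307). Tpi1 rose in fibroblast-like cells from 97.8 and 110 to 125 and 145 CPM (log2 0.43, SE 0.14, adjusted p = 0.0444), and lost the call in the same way (0.13, adjusted p = 0.558). Both calls were also lost without homeostatic replicate 1 or 2 (adjusted p = 0.0758 and 0.0757 for Aldoa, 0.381 and 0.19 for Tpi1). Aldoa and Tpi1 have 2.61 and 0.96 kb of intron.

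Of the enzymes from glyceraldehyde 3-phosphate to pyruvate, Pkm and Pgk1, the ATP-yielding steps, were the ones that passed in more than 1 class. Pkm, pyruvate kinase, rose in fibroblast-like cells from 117 and 112 to 167 and 196 CPM (log2 0.72, SE 0.13, adjusted p = 0.00295). It rose in NK/innate lymphoid-like cells from 114 and 108 to 131 and 145 CPM (log2 0.42, SE 0.08, adjusted p = 0.00506), and in endothelial-like cells from 139 and 132 to 151 and 177 CPM (log2 0.30, SE 0.09, adjusted p = 0.0421). The groups did not overlap in any of the 3 classes. With the intron-length trend removed the first of these had 0.67 (adjusted p = 0.00657), the second 0.37 (adjusted p = 0.0133) and the third 0.25 (adjusted p = 0.0632). In T cell-like cells Pkm was at 186 and 160 against 131 and 133 CPM and missed the threshold (log2 0.51, adjusted p = 0.053). Without homeostatic replicate 1 or 2 no call of Pkm was kept, with adjusted p of 0.075 and 0.0913 in fibroblast-like, 0.0681 and 0.0729 in NK/innate lymphoid-like, and 0.304 and 0.393 in endothelial-like cells.

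Pgk1, phosphoglycerate kinase, rose in fibroblast-like cells from 48.4 and 55.1 to 74.5 and 79.5 CPM (log2 0.63, SE 0.14, adjusted p = 0.00974), also with the trend removed (0.53, adjusted p = 0.0282). In NK/innate lymphoid-like cells it rose from 69.8 and 65.6 to 74.1 and 77.6 CPM (log2 0.26, SE 0.09, adjusted p = 0.0414), a call lost with the trend removed (adjusted p = 0.231). DESeq2 did not call Pgk1 in either class (adjusted p = 0.0642 in fibroblast-like and 0.217 in NK/innate lymphoid-like cells). Without homeostatic replicate 1 or 2 the adjusted p was 0.188 and 0.0803 in fibroblast-like and 0.231 and 0.239 in NK/innate lymphoid-like cells.

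Gapdh, often used as a reference gene, passed in no class. Its values were 443 and 400 against 406 and 402 CPM in NK/innate lymphoid-like cells, and its log2 fold changes lay between -0.03 in mural-like and 0.28 in T cell-like cells. Pgam1 and Eno1 also passed in none. Eno1 had log2 fold changes from -0.34 in mural-like to 0.11 in NK/innate lymphoid-like cells, and Pgam1 from 0.08 to 0.59. Eno1 shares near-identical sequence with the intronless copy Eno1b, which drew 21 to 50 UMIs per library where Eno1 drew 2991 to 4718. Ldha, the lactate step, was at 156 and 153 against 124 and 131 CPM in fibroblast-like cells (log2 0.33, adjusted p = 0.0895) and at 249 and 276 against 232 and 233 CPM in endothelial-like cells (log2 0.20, adjusted p = 0.109). Neither pair of groups overlapped, and neither passed.

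Scaling mattered for these small changes. With scaling factors taken from genes with at most 20 kb of intron, the median of all genes moved to between -0.13 and -0.22, and the calls of Aldoa, Pkm and Pgk1 in NK/innate lymphoid-like cells, of Pkm in endothelial-like cells and of Pgk1 and Tpi1 in fibroblast-like cells were lost. Reference genes rose in the same classes: 8 of 14 in NK/innate lymphoid-like cells (median 0.32) and 6 of 13 in fibroblast-like cells (median 0.36), with none lower, where 16.5% and 8.94% of all genes rose. In endothelial-like and T cell-like cells 3 of 14 rose (medians 0.23 and 0.33), where 12.9% and 4.5% of all genes rose. In mural-like cells none of 14 passed (median 0.21). After removal of the intron-length trend 3 rose and 1 fell in NK/innate lymphoid-like cells. In that setting 3 rose in fibroblast-like, 2 in endothelial-like and none in T cell-like or mural-like cells. The calls over all genes there are given above with the transport genes. The reference list includes Gapdh and Pgk1. Immediate early and dissociation genes, induced by tissue handling, rose for 17, 16, 14, 11 and 9 of 22, 22, 22, 22 and 21 tested genes in endothelial-like, NK/innate lymphoid-like, T cell-like, fibroblast-like and mural-like cells, where 12.9%, 16.5%, 4.5%, 8.94% and 1.22% of all genes rose. In NK/innate lymphoid-like and in fibroblast-like cells 1 of them fell. Once the intron-length trend was removed 16, 9, 7, 10 and 7 rose and 0, 3, 0, 1 and 0 fell. Their part in the members' changes was not tested.

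Macrophage-like cells had too few cells for the test in deligated replicate 1 (38, against 109, 1046 and 1030). As values, the summed members were at 1678 and 1809 CPM in deligated and 1349 and 1391 CPM in homeostatic libraries. Pgk1 was at 90.6 and 80.5 against 44.8 and 40.0 CPM, Ldha at 157 and 169 against 122 and 104 CPM, and Slc2a1 at 9.53 and 4.83 against 26.5 and 27.7 CPM. These 3 members were named after their values were seen, and the groups overlapped for Aldoa, Eno1 and Tpi1. The change of the members was not tested.

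Among other isoenzymes of the pathway, Gpi1, glucose 6-phosphate isomerase and the step between hexokinase and phosphofructokinase, rose in endothelial-like, NK/innate lymphoid-like and T cell-like cells (log2 0.39, 0.60 and 0.53), with adjusted p of 0.0193, 0.000979 and 0.0362. With the intron-length trend removed the value in T cell-like cells was the same to 2 decimals (0.53), and its adjusted p was 0.0655. Ldhb, the lactate dehydrogenase subunit that favours pyruvate, fell in NK/innate lymphoid-like cells from 13.7 and 11.5 to 0.71 and 1.96 CPM (log2 -2.95, adjusted p = 0.000332) and in endothelial-like cells from 20.9 and 20.0 to 12.1 and 11.9 CPM (log2 -0.75, adjusted p = 0.00323). Bpgm, which diverts 1,3-bisphosphoglycerate, rose in fibroblast-like cells (log2 1.16, adjusted p = 0.0215). Of 17 listed isoenzymes, 9, 9, 7, 9 and 10 were tested in endothelial-like, NK/innate lymphoid-like, T cell-like, fibroblast-like and mural-like cells, and those named here were all that passed, 2, 2, 1, 1 and 0 genes, beside 35.3%, 43.5%, 18.5%, 27.5% and 7.76% of all genes. The counts without the intron-length trend were 2, 2, 0, 2 and 0 higher and 1, 1, 0, 0 and 0 lower. They stand beside 3992 of 13226, 3537 of 11606, 802 of 9737, 2106 of 11621 and 495 of 9825 genes called in that setting. The mural count of the isoenzymes was 0 with edgeR.

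Among 20 regulators of glycolytic flux, 5 rose and 2 fell of 20 tested in endothelial-like cells, 4 rose and 3 fell of 17 in NK/innate lymphoid-like cells, 1 rose and 2 fell of 14 in T cell-like cells, 2 fell of 17 in fibroblast-like cells and 1 rose of 14 in mural-like cells. Among all genes 35.3%, 43.5%, 18.5%, 27.5% and 7.76% passed in these classes. After removal of the intron-length trend 4, 3, 0, 0 and 2 of the regulators rose and 2, 1, 0, 2 and 0 fell. Among all genes 3992 of 13226, 3537 of 11606, 802 of 9737, 2106 of 11621 and 495 of 9825 then passed. Pfkfb3, which makes the phosphofructokinase activator fructose 2,6-bisphosphate, fell in NK/innate lymphoid-like cells from 35.6 and 29.4 to 4.60 and 5.57 CPM (log2 -2.55, adjusted p = 1.77e-05) and in T cell-like cells from 41.3 and 37.9 to 14.0 and 7.87 CPM (log2 -1.75, adjusted p = 0.00966). These are the classes with the largest fall of Slc2a1. The T cell-like call was lost with the intron-length trend removed (adjusted p = 0.076). Txnip, an inhibitor of glucose uptake, rose in NK/innate lymphoid-like cells from 180 and 165 to 327 and 299 CPM (log2 0.95, adjusted p = 0.000154) and in mural-like cells (log2 0.78, adjusted p = 0.0133). It also rose in T cell-like cells (log2 0.71, adjusted p = 0.0444), a call lost with the intron-length trend removed (adjusted p = 0.364). Myc rose in endothelial-like (log2 2.07) and NK/innate lymphoid-like cells (log2 0.92), and Hif1a rose in endothelial-like cells (log2 0.52, adjusted p = 0.04995). Arnt, the partner of Hif1a, fell in endothelial-like, NK/innate lymphoid-like, T cell-like and fibroblast-like cells (log2 -0.76, -0.78, -1.23 and -0.95). With the intron-length trend removed its calls in NK/innate lymphoid-like (-0.34, adjusted p = 0.0864) and T cell-like cells (-0.82, adjusted p = 0.126) were lost.

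Of 18 hypoxia-responsive genes outside glycolysis, 5 of 16, 5 of 13, 2 of 12, 2 of 15 and 1 of 14 tested genes rose in endothelial-like, NK/innate lymphoid-like, T cell-like, fibroblast-like and mural-like cells, and 1, 2, 0, 1 and 0 fell. Of all genes 12.9%, 16.5%, 4.5%, 8.94% and 1.22% rose in these classes, and 22.3%, 27.0%, 14.0%, 18.6% and 6.53% fell. After removal of the intron-length trend 4, 3, 0, 2 and 1 of the list rose and 2, 1, 0, 1 and 0 fell. That setting called 3992 of 13226, 3537 of 11606, 802 of 9737, 2106 of 11621 and 495 of 9825 genes. Ddit4, a stress-induced inhibitor of mTORC1, rose in all 5 classes, with log2 fold changes of 1.96, 0.67, 1.12, 2.21 and 2.14. With the intron-length trend removed its calls in NK/innate lymphoid-like (0.31, adjusted p = 0.134) and T cell-like cells (0.73, adjusted p = 0.141) were lost. Vegfa, the angiogenic factor, rose in NK/innate lymphoid-like cells from 4.23 and 4.10 to 15.4 and 11.2 CPM (log2 1.73, adjusted p = 0.0012). P4ha1, a collagen prolyl hydroxylase subunit, fell in NK/innate lymphoid-like (log2 -1.20) and endothelial-like cells (log2 -0.66). The list medians lay between 0.02 and 0.29, beside 0.00 to 0.03 for all genes.

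Downstream of pyruvate, 17 genes of mitochondrial entry and the citrate cycle were tested in every class. In endothelial-like cells 1 rose, Pdhb of the pyruvate dehydrogenase complex (log2 0.53, adjusted p = 0.004), and 2 fell, the mitochondrial pyruvate carrier subunits Mpc1 (log2 -0.31, adjusted p = 0.0462) and Mpc2 (log2 -0.39, adjusted p = 0.0117). In NK/innate lymphoid-like cells 3 rose and in T cell-like cells 1 rose, Pdhb in both, and none passed in fibroblast-like or mural-like cells, beside 35.3%, 43.5%, 18.5%, 27.5% and 7.76% of all genes. In the same order, 4, 3, 0, 1 and 0 rose and 3, 2, 0, 0 and 0 fell once the intron-length trend was removed. Of all genes, 3992 of 13226, 3537 of 11606, 802 of 9737, 2106 of 11621 and 495 of 9825 passed in that setting. With the intron-length trend removed the calls of Pdhb in NK/innate lymphoid-like (0.21, adjusted p = 0.192) and T cell-like cells (0.41, adjusted p = 0.265) and of Mdh2, malate dehydrogenase, in NK/innate lymphoid-like cells (0.09, adjusted p = 0.546) were lost, while other genes of the list gained calls. Of 21 genes of the pentose phosphate pathway and other branches, 5 rose and 3 fell of 21 tested in endothelial-like cells, 4 rose and 3 fell of 19 in NK/innate lymphoid-like cells, 1 fell of 17 in T cell-like cells, 1 rose and 1 fell of 20 in fibroblast-like cells, and none of 19 passed in mural-like cells, beside 35.3%, 43.5%, 18.5%, 27.5% and 7.76% of all genes. After removal of the intron-length trend 4, 3, 0, 1 and 0 of them rose and 0, 2, 0, 1 and 0 fell. Gpd2, the mitochondrial glycerol 3-phosphate dehydrogenase, turned there from -0.28 (adjusted p = 0.0484) to 0.30 (adjusted p = 0.0316). Its value in NK/innate lymphoid-like cells turned from -0.99 (adjusted p = 0.000183) to 0.04 (adjusted p = 0.824).

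Cycling cells were compared with other cells of the same class and library. The unnamed cluster led by cell cycle genes belongs to no named class and was not part of this comparison. The share of cycling cells, by at least 2 UMIs of cell cycle genes after thinning to 1000 UMIs, was 18.6% and 21.7% in deligated and 11.9% and 13.8% in homeostatic NK/innate lymphoid-like cells. No member passed in endothelial-like (9 tested, 0.842% of 11883 genes called), NK/innate lymphoid-like (10 tested, 0.32% of 10327 genes) or T cell-like cells (10 tested, 0.403% of 7188 genes). The members' log2 differences lay between -0.07 and 0.18 in endothelial-like, -0.25 and 0.23 in NK/innate lymphoid-like, and -0.51 and 0.15 in T cell-like cells. At an unadjusted p under 0.05 there was 1 member, Gapdh in NK/innate lymphoid-like cells (log2 0.23, SE 0.07, adjusted p = 0.284 with edgeR). Without deligated replicate 1, 1 member passed in NK/innate lymphoid-like cells.

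The genes outside all lists whose log2(CPM + 1) was most like the members' summed level over the 20 class and library sums of tested classes were Npepl1 (Pearson r = 0.95), Prkar1a (0.94), Ndufa7 (0.93), Myl6 (0.93) and Crip1 (0.92), among 7143 genes with a mean of at least 20 CPM. For Slc2a1 they included Phf8 (0.93) and Tex14 (0.91). The sums share libraries and depth, and these values are descriptions.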

How the data were processed

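Per the file headers, the deposited values are raw UMI counts per gene and cell barcode, made by the authors with Cell Ranger 6.0.1 (deligated) and 7.0.0 (homeostatic). The submitters' processing notes name Cell Ranger 6.0.1, Seurat and mm10 for all samples. Intron and strand settings are not given in the sources used here. Gene positions are from GENCODE M21 (GRCm38), which matched 31011 of 31053 gene IDs. Members and lists were chosen with earlier results of these data known.

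Cells with at least 300 genes and at most 10% mitochondrial UMIs were kept. Doublets were removed at 0.8% per 1000 cells by similarity to simulated doublets. Cells were clustered with scanpy 1.11.5 (3000 variable genes, 30 components, 20 neighbours, Leiden resolution 1.0, no batch correction). A cluster was named from at least 3 markers at 2.0-fold, present in 10% of its cells, and the scoring rules were set with the clusters in view. For each class and library the counts were added up, and these sums were tested with edgeR 4.0.16 (quasi-likelihood, TMM, filterByExpr, Benjamini-Hochberg, threshold 0.05) in the 5 classes with at least 50 cells per library. A test of the difference among classes had library as a block. Fold changes are after TMM scaling and can differ from ratios of CPM. With 2 libraries per group, permuting libraries cannot reach 0.05. As nothing states that libraries came from separate animals, p-values measure the spread between libraries. The intron-length trend was removed as a per-library loess offset. On simulated counts, 88.0% to 98.5% of 200 genes changed 2-fold were recovered per class (87.0% for the difference among classes, and 100% for cycling in endothelial-like cells). Named genes were the 10 members and, per list and class, up to 3 higher and 3 lower genes by size of change. Coordinates are 1-based. Alternatives used DESeq2 1.42.0 and R 4.3.3. Some values for single genes are not reported here.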

Additional observations from a re-analysis of the deposited data

Results flagged for a closer look

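A pair of members drew attention because their change between deligated and homeostatic libraries differed among the 5 cell classes by a test of the class by group terms. Slc2a1 (adjusted p = 2.01e-05, edgeR quasi-likelihood) fell by 2.52 in NK/innate lymphoid-like and T cell-like cells and by 0.86 in endothelial-like cells on the log2 scale, while fibroblast-like cells had -0.29 and mural-like cells -0.30. Hk2 (adjusted p = 0.0365) rose by 1.87 in fibroblast-like cells and had 0.97, 0.16 and -0.18 in T cell-like, NK/innate lymphoid-like and endothelial-like cells. Over the alternatives of this test, the adjusted p of Slc2a1 lay between 8.73e-09 and 0.0104 and that of Hk2 between 0.00167 and 0.299.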

How the results depend on the processing

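Slc2a1 kept its direction and its call in NK/innate lymphoid-like cells (log2 -2.83 to -2.45) and T cell-like cells (-3.04 to -2.38), and Hk2 in fibroblast-like cells (1.52 to 2.47), under each of the 16 alternatives run, and no called change of a member reversed. Outside the members, Gpd2 turned from -0.28 to 0.30 in endothelial-like cells and from -0.99 to 0.04 in NK/innate lymphoid-like cells with the intron-length trend removed. The smaller calls depended on the setting. Where 2, 4, 1 and 4 members passed in endothelial-like, NK/innate lymphoid-like, T cell-like and fibroblast-like cells, the counts were 1, 2, 1 and 3 with the intron-length trend removed, 1, 1, 1 and 2 with scaling from genes with at most 20 kb of intron and with cells thinned to 1000 UMIs, 1, 3, 1 and 2 with DESeq2, 1, 5, 5 and 5 without the filter on low counts, and 1, 4, 2 and 4 without cycling cells. In the arterial subset 0 passed. Leaving out 1 library gave 1 to 6, 1 to 7, 1 to 7 and 1 to 7 members. It gave 1 to 4 members in the test among classes and 0 to 1 for cycling in NK/innate lymphoid-like cells. With 1 library left in a group, the spread comes from the other group. Mural-like cells had 0 under each alternative run.

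The labels do not say whether replicate numbers mark paired libraries. Correlations of the replicate deviations between groups were -0.116, -0.223, -0.108, 0.008 and 0.04 in endothelial-like, NK/innate lymphoid-like, T cell-like, fibroblast-like and mural-like cells. With 1 replicate difference per group these cannot settle the pairing. With a replicate block the members called were 1, 3, 1, 4 and 0, and with the block and the trend removed 1, 2, 1, 3 and 0. A crossed pairing, chosen after seeing the data, gave 1, 3, 5, 4 and 0 members.

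Over all genes, 4668, 5049, 1802, 3201 and 762 were called in these 5 classes. In this main setting 13226, 11606, 9737, 11621 and 9825 genes were tested. Thinning gave 2559, 2407, 635, 1094 and 251. DESeq2 gave 3315, 3304, 981, 1911 and 445. Removing the trend gave 3992, 3537, 802, 2106 and 495, and with the block 2892 in NK/innate lymphoid-like and 477 in T cell-like cells. Scaling from genes with at most 20 kb of intron gave 4470, 4634, 1985, 3267 and 943. The fits without cycling cells gave 4525, 4776, 1606, 3181 and 832. Without the low-count filter the counts were 4533, 5354, 2770, 4153 and 1344. The crossed pairing gave 1282 in mural-like cells, and the arterial and smooth muscle subsets gave 1771 and 490. Leaving out 1 library gave 1986 to 7851, 2722 to 6587, 729 to 2244, 1403 to 4898 and 219 to 1143. No value came from the strict cell filter in mural-like cells, the subsets of NK/innate lymphoid-like, T cell-like and fibroblast-like cells (each nearly wholly of 1 group), or 3 cell cycle UMIs in T cell-like cells.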

Other observations

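In Schwann-like cells the summed members were at 1002 and 1054 CPM in the deligated libraries, and at 6028 and 946 CPM in the homeostatic ones. The high value of homeostatic replicate 1 rested on 2 of its 45 cells. They had 111553 and 82977 UMIs, 56.1% of the UMIs of that class and library, and without them the level was 894 CPM. These cells were singled out after their values were seen. They held 1141 and 813 UMIs of the members, 10228 and 9798 CPM, more than 99.4% and 99.3% of all cells. Both were rich in Sncg (836 and 588 UMIs), Stmn2 (641 and 450), Uchl1 (468 and 372) and Stmn3 (441 and 372), genes known from neurons. Neither had a UMI of Slc2a1 or Hk2, and they held 4 and 4 UMIs of Slc2a3 and 30 and 23 of Hk1.

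An unnamed cluster led by Fxyd2, Cox8b and Rragd, with median depths of 684 and 699 UMIs in the homeostatic libraries, stood at 4131 and 4132 CPM for the summed members. An unnamed cluster led by cell cycle genes (Hist1h1b, Birc5) was at 2100 and 2026 CPM in deligated and 1722 and 1638 CPM in homeostatic libraries.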
